A study of Mus musculus with 22 samples.

Results

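The Hedgehog pathway was followed through 7 genes in C3H 10T1/2 cells. This line comes from mouse mesenchyme and can turn into adipocytes. The 7 genes were chosen by name as the core of the pathway: the receptor gene Ptch1, the signal transducer gene Smo, the decoy receptor gene Hhip, the inhibitor gene Sufu and the transcription factor genes Gli1, Gli2 and Gli3. They are 7 of the 30170 genes in the count table, and 6 of them passed a filter on low counts that 14520 genes passed in all. Hhip did not pass it.

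The cells were made to express DNMT3A1, the long isoform of the DNA methyltransferase DNMT3A, either as WT, as the mutant W330R or as the double mutant W330R-R181E. Cells with WT or W330R were sequenced undifferentiated and on days 2, 4 and 6 of adipocyte differentiation, and cells with the double mutant on days 2, 4 and 6. Each of the 11 conditions had 2 libraries. Differentiation began in serum medium with isobutylmethylxanthine, dexamethasone, insulin and troglitazone, which was exchanged on day 2 for serum medium with insulin only. All groups carried an introduced DNMT3A1, and the labels do not say whether a line is 1 clone or a pool, or which promoter drives the transgene. The column headings of the 6 double mutant libraries read R181A where the labels read R181E. The 4 undifferentiated libraries are named by a different scheme from the 18 later ones, and no stage holds both schemes, so that a difference between these sets of libraries and the step to day 2 cannot be told apart.

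Cells without ligand keep the pathway off because PTCH1, the receptor, holds the membrane protein SMO inactive. A Hedgehog ligand (SHH, IHH or DHH) binds PTCH1, SMO then collects in the primary cilium, and the GLI transcription factors, which SUFU otherwise retains, reach the nucleus. GLI2 serves mainly as the activator and GLI3 mainly as the repressor, whereas Gli1, Ptch1 and Hhip are themselves induced by the pathway and serve as its usual readouts. In mesenchymal cells Hedgehog signalling is known to favour bone over fat.

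The count table held between 8859501 and 47453908 counts per library, with a median of 19355792. Levels are given as CPM, the counts scaled to a library of 1e6, after TMM normalization. A level had to exceed a floor of 3 counts to be taken as measurable, and this floor corresponded to 0.0583 to 0.347 CPM. The 8 mesenchymal markers summed to 16858 to 21000 CPM in undifferentiated libraries and to 2641 to 13804 CPM later. They did not all move with this sum. Col1a1, Col1a2, Thy1 and Ly6a were lower in every later library than in any undifferentiated one. Pdgfrb, Vim and Twist1 overlapped between these sets. Pdgfra was higher in every later library, at 185 to 620 CPM against 118 to 174 CPM in undifferentiated libraries. The 8 adipocyte markers summed to 51.5 to 59.6 CPM in undifferentiated libraries. On days 2 to 6 they reached 2858 to 9213 CPM in WT, 1425 to 2451 CPM in W330R and 1695 to 4336 CPM in the double mutant. The 4 proliferation markers summed to 1161 to 1184 CPM in undifferentiated cells and to 68.1 to 337 CPM later. In these bulk samples, fewer cells of a type and less RNA per cell cannot be told apart, and the part of either in the results on the pathway genes was not tested. Among markers of other lineages, Myod1 and Ckm were at 0 in every library, the muscle marker Des reached 14.3 CPM, and the 3 macrophage or leukocyte markers found summed to 2.59 to 16.4 CPM. The 3 chondrocyte markers (Sox9, Acan and Col2a1) summed to 969 to 1151 CPM in undifferentiated libraries. On days 2 to 6 they summed to 210 to 2124 CPM in WT, 327 to 807 CPM in W330R and 245 to 5138 CPM in the double mutant, with Col2a1 at up to 4465 CPM. The undifferentiated libraries of a condition differed from each other by a chi-square of 3.10 and 3.40 per degree of freedom, against 29.3 to 103 in the 9 later conditions. On days 2 to 6, replicate 1 was above replicate 2 in 9 of 9 conditions for Gli3, in 8 of 9 for Gli2 and in 6 of 9 for Ptch1. For Ptch1 this order split by genotype. Replicate 1 was higher in 3 of 3 conditions of WT and 3 of 3 of the double mutant, and replicate 2 in 3 of 3 of W330R.

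The region around a transcription start was read from RefSeq (GRCm38.p6, 250 bases before to 50 bases after the start) for 6 of the 7 genes, with no match for Gli1. These sequences are shown for the receptor and for the Gli2 and Gli3 factors because DNMT3A methylates CpG dinucleotides, which are in capitals, and because these members had the largest fitted differences between genotypes at single stages among the tested genes with a window. Methylation was not measured in these libraries. The Ptch1 and Gli3 windows lie wholly inside the GENCODE spans of these genes, whose upstream ends are at 63573598 and 15463235. Other starts were not read.
Ptch1 (chr13:63565686-63565985, minus strand): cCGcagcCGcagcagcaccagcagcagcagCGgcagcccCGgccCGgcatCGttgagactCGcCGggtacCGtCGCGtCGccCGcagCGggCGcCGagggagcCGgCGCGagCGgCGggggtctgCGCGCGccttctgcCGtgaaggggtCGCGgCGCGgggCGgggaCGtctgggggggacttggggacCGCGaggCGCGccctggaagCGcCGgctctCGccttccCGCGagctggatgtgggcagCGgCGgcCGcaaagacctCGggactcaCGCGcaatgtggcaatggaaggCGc
Gli2 (chr1:119053570-119053869, minus strand): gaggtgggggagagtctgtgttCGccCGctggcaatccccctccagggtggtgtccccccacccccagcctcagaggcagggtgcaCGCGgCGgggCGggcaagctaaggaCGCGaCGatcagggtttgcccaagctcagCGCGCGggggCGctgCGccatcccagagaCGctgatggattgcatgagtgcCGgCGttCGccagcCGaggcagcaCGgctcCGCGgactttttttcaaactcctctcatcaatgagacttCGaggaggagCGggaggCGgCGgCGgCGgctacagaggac
Gli3 (chr13:15463473-15463772, plus strand): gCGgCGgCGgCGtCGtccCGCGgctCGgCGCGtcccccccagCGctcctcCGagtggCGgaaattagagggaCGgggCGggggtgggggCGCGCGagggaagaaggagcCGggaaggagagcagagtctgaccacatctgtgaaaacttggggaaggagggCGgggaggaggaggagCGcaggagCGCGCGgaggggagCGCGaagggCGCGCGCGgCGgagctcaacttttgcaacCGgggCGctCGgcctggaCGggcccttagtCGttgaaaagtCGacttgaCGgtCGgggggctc
The Ptch1 window holds 47 CpG dinucleotides, the Gli3 window 39 and the Gli2 window 28. The windows of Hhip, Smo and Sufu hold 30, 17 and 12, and the median of 32851 windows of the same length is 7. The GLI motif GACCACCCA was searched on both strands (TGGGTGGTC on the other) and is in none of the 6 windows, as against 83 of all 32851 (0.253%). At so low a share, its absence from 6 windows cannot show whether these genes hold more or fewer such sites than others.

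Genotypes were compared first as averages over stages, with edgeR's quasi-likelihood test and Benjamini-Hochberg adjustment over all 14520 genes. A gene was called at an adjusted p under 0.05. With W330R, Smo, Sufu and Gli3 were higher than in WT. In the double mutant, Ptch1 was at 2.15 times its level in W330R and 2.08 times its level in WT. Sufu was also higher in the double mutant than in WT, and Smo was lower than in W330R.

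For W330R against WT over the 4 stages, 3 of the 6 genes tested were called, all higher, beside 22.9% of all genes, of which 11.2% were higher and 11.8% lower. Between the double mutant and W330R over days 2 to 6, 2 of 6 were called, Ptch1 higher and Smo lower, beside 17.2% of all genes (7.87% higher and 9.36% lower). Between the double mutant and WT over days 2 to 6, 2 of 6 were called, both higher, beside 9.57% of all genes (4.46% higher and 5.12% lower). The comparisons share the W330R or the WT libraries.

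At single stages the test called none of the 6 genes between genotypes. For W330R against WT this held for 24 tests with a smallest edgeR adjusted p of 0.0839, beside 1.75% of all genes called before differentiation and 3.06%, 6.14% and 7.54% on days 2, 4 and 6. Of these 24 tests, 6 had an unadjusted p under 0.05, and DESeq2 called 2. With the replicate number as a block, edgeR called Gli2 and Gli3 among them. For the double mutant against W330R the smallest edgeR adjusted p of 18 tests was 0.114, beside 2.67%, 1.91% and 1.50% of all genes called on days 2, 4 and 6. Of these tests 6 had an unadjusted p under 0.05, beside 2237, 1999 and 2177 of all genes, and DESeq2 called 1. Against WT the smallest edgeR adjusted p was 0.159, beside 0%, 0% and 0.875%, with 4 unadjusted p-values under 0.05 and 1 call by DESeq2. Where edgeR called 0 of all genes, on days 2 and 4, 1300 and 1637 genes had an unadjusted p under 0.05, and DESeq2 called 110 and 160. On day 6, 2159 genes had an unadjusted p under 0.05. The shares of all genes called by DESeq2 in the other single-stage comparisons, and with the block, are not given here.

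**Figure D1:**
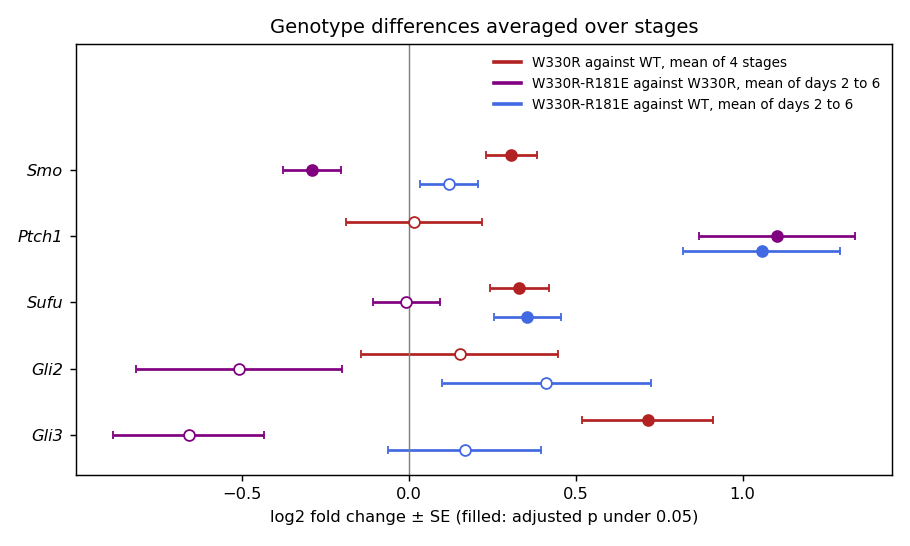
Log2 fold change (horizontal axis) ± SE of 5 Hedgehog pathway genes for the 3 comparisons of genotypes averaged over stages, with filled points for an edgeR adjusted p under 0.05. Ptch1 stands to the right of 0 in both comparisons of the double mutant, at 1.10 and 1.06, and close to 0 for W330R against WT. Gli1, whose day 2 libraries hold 0 or 1 counts, and Hhip, which did not pass the filter, are not drawn.

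Ptch1 (ENSMUSG00000021466, chromosome 13, 63508328 to 63573598 in GRCm38) encodes the Hedgehog receptor and is induced by the pathway that it restrains. Undifferentiated WT libraries held 23.9 and 22.2 CPM and undifferentiated W330R libraries 25.2 and 27.5 CPM. Later WT libraries held 37.6 and 28.6 CPM on day 2, 51.2 and 34.1 on day 4, and 51.7 and 36.5 on day 6. Later W330R libraries held 21.5 and 32.0, 38.1 and 49.4, and 44.98 and 51.1 CPM on the same days. WT and W330R overlapped on each of these days. The double mutant held 73.2 and 28.7 CPM on day 2, 147 and 79.9 on day 4, and 123 and 71.0 on day 6. On days 4 and 6 every double mutant library was above every WT and W330R library, whereas on day 2 replicate 1 of the double mutant was above the other genotypes and replicate 2 within their range.

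Averaged over days 2 to 6, the double mutant exceeded W330R in Ptch1 by 1.10 ± 0.23 on the log2 scale (SE; 6 libraries a group), with an edgeR adjusted p of 0.0055. Against WT the difference was 1.06 ± 0.24, with an edgeR adjusted p of 0.0152. W330R and WT differed by 0.01 ± 0.20 over the 4 stages (edgeR adjusted p = 1.00). The call against W330R held without each of the 12 libraries in turn. The call against WT ended without WT day 2 replicate 2 (edgeR adjusted p 0.0506), WT day 4 replicate 2 (0.0552), WT day 6 replicate 2 (0.0575), double mutant day 4 replicate 1 (0.0558) or double mutant day 6 replicate 1 (0.0512), and with a fit of the libraries compared alone (0.107). The chondrocyte markers also had their highest sum in the double mutant (5138 CPM), and their part in the Ptch1 result was not tested.

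Day by day, Ptch1 exceeded W330R by 0.92 ± 0.41, 1.37 ± 0.41 and 1.02 ± 0.40 on the log2 scale on days 2, 4 and 6, with edgeR adjusted p-values of 0.292, 0.114 and 0.246. Against WT the differences were 0.62 ± 0.41, 1.41 ± 0.41 and 1.14 ± 0.41, with edgeR adjusted p-values of 0.722, 0.258 and 0.203. None passed the threshold, while DESeq2 called the day 4 differences, with adjusted p-values of 0.0211 against W330R and 0.0498 against WT. Over time, Ptch1 did not pass the test from undifferentiated cells to day 2 in WT (0.52 ± 0.41, edgeR adjusted p = 0.308) or in W330R (0.02 ± 0.41, edgeR adjusted p = 0.973). The steps of Ptch1 from day 2 to day 6 were 0.42 ± 0.41 in WT, 0.84 ± 0.41 in W330R and 0.94 ± 0.41 in the double mutant, with edgeR adjusted p-values of 0.487, 0.147 and 0.109. With only the conditions compared in the fit, the step in W330R was called (0.84 ± 0.21, edgeR adjusted p = 0.0401).

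**Figure D2:**
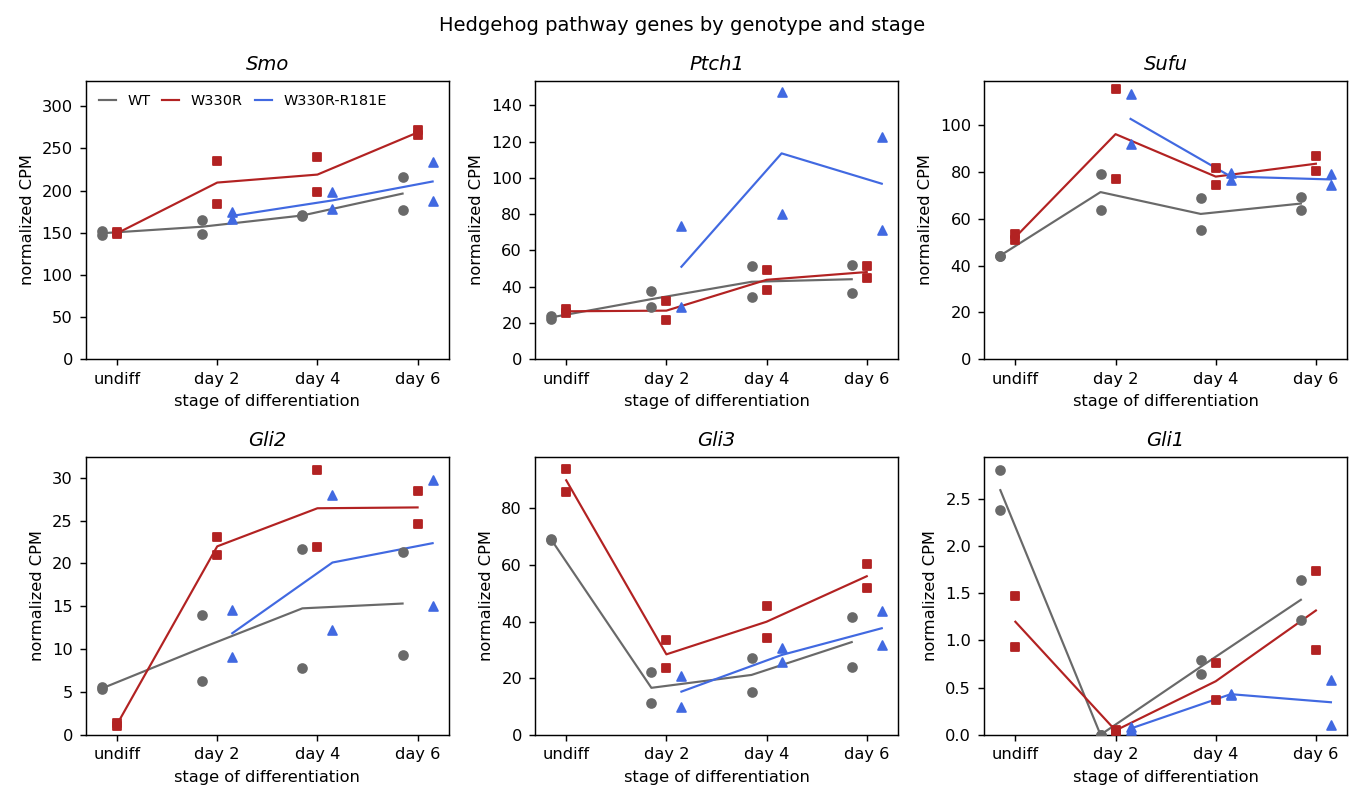
Normalized CPM (vertical axes, from 0) of 6 Hedgehog pathway genes by stage, with 1 point per library, lines through condition means, and WT in grey circles, W330R in red squares and W330R-R181E in blue triangles. Ptch1 in the double mutant stands apart on days 4 and 6, at 71.0 to 147 CPM against 34.1 to 51.7 CPM in the other genotypes, and Gli3 and Gli1 are lower on day 2 than in undifferentiated cells.

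Smo (ENSMUSG00000001761, chromosome 6, 29735503 to 29761365 in GRCm38) encodes the transducer that PTCH1 holds inactive. Undifferentiated libraries held 152 and 147 CPM in WT, and 148 and 151 CPM in W330R. On days 2 to 6 the lowest, median and highest library were at 149, 170 and 216 CPM in WT, at 184, 238 and 272 CPM in W330R, and at 166, 183 and 234 CPM in the double mutant. The WT and W330R libraries overlapped in undifferentiated cells, and on each later day both W330R libraries were above both WT libraries. Smo was higher in W330R than in WT by 0.31 ± 0.08 on the log2 scale (SE; 8 libraries a group; edgeR adjusted p = 0.00995). The double mutant had less Smo than W330R, with a log2 fold change of -0.29 ± 0.09 and an edgeR adjusted p of 0.0339.

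The call of Smo between the double mutant and W330R was lost in several settings. It ended with a fit of the libraries compared alone (edgeR adjusted p = 0.0938). It also ended without W330R day 2 replicate 2, day 4 replicate 2, day 6 replicate 1 or day 6 replicate 2, and without double mutant day 2 replicate 1, day 2 replicate 2, day 4 replicate 1 or day 6 replicate 2, with edgeR adjusted p-values of 0.0551 to 0.102. The double mutant and WT differed by 0.12 ± 0.09 (edgeR adjusted p = 0.395). From undifferentiated cells to day 2, Smo rose in W330R by 0.49 ± 0.15 (edgeR adjusted p = 0.0156), a call that ended without undifferentiated replicate 1 (0.0769), undifferentiated replicate 2 (0.0641) or day 2 replicate 2 (0.182). In WT the step was 0.07 ± 0.15 (edgeR adjusted p = 0.712).

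Hhip (ENSMUSG00000064325, chromosome 8, 79965851 to 80058006 in GRCm38) encodes a membrane protein that binds Hedgehog ligands and is a target of the pathway. Its counts ran from 0 to 8, and 12 of the 22 libraries had none. The 4 undifferentiated libraries were all at 0, where 3 counts over both libraries would be 0.0887 CPM in WT and 0.144 CPM in W330R and the exact Poisson upper limits are 0.109 and 0.177 CPM. On days 2 to 6 all 6 W330R libraries had at least 1 count, with 22 in all, against 6 counts in 3 of 6 WT libraries and 2 counts in 1 of 6 double mutant libraries. Pooled over these days, Hhip was at 0.135 CPM in W330R (95% exact Poisson interval 0.0843 to 0.204), 0.0576 CPM in WT (0.0211 to 0.125) and 0.0161 CPM in the double mutant (0.00195 to 0.0582). These intervals cover counting error only. In a fit without the filter, edgeR gave an unadjusted p of 0.0125 and an adjusted p of 0.0997 for the double mutant against W330R.

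Sufu (ENSMUSG00000025231, chromosome 19, 46396896 to 46488804 in GRCm38) encodes the cytoplasmic inhibitor that retains GLI proteins. Undifferentiated libraries held 44.3 CPM each in WT against 50.8 and 53.5 CPM in W330R. On days 2 to 6 the lowest, median and highest library were at 55.1, 66.4 and 79.1 CPM in WT, at 74.5, 81.0 and 115 CPM in W330R, and at 74.4, 79.3 and 113 CPM in the double mutant. The WT range overlapped both others. Sufu was higher in W330R than in WT by 0.33 ± 0.09 on the log2 scale (edgeR adjusted p = 0.0149), a call that held without each of the 16 libraries in turn. It was higher in the double mutant than in WT by 0.35 ± 0.10 (edgeR adjusted p = 0.0419), and the mutants differed by -0.01 ± 0.10 (edgeR adjusted p = 0.983).

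The call of Sufu between the double mutant and WT ended without WT day 2 replicate 1, day 4 replicate 2 or day 6 replicate 2, and without double mutant day 2 replicate 2, either day 4 replicate or day 6 replicate 1, with edgeR adjusted p-values of 0.0656 to 0.124, and with a fit of the libraries compared alone (0.122). From undifferentiated cells to day 2, Sufu rose by 0.69 ± 0.18 in WT (edgeR adjusted p = 0.00478) and by 0.88 ± 0.18 in W330R (edgeR adjusted p = 0.000967). The rise in WT lost its call without WT day 2 replicate 2 (0.0695).

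Gli2 (ENSMUSG00000048402, chromosome 1, 118834132 to 119053619 in GRCm38) encodes the main activator of the pathway. In undifferentiated cells the WT libraries held 5.55 and 5.30 CPM and the W330R libraries 1.06 and 1.39 CPM. On days 2, 4 and 6, WT held 14.04 and 6.29, 21.7 and 7.80, and 21.3 and 9.33 CPM. W330R held 20.9 and 23.1, 31.0 and 21.9, and 28.5 and 24.6 CPM on these days. W330R was thus below WT in undifferentiated cells and above it on each later day, with no overlap at any of the 4 stages. The double mutant held 14.6 and 9.11, 28.0 and 12.2, and 29.7 and 15.1 CPM, overlapping WT on each day and W330R on days 4 and 6.

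In undifferentiated cells the W330R level of Gli2 differed from WT by -2.16 ± 0.69 on the log2 scale, which did not pass the test (edgeR adjusted p = 0.156). A fit of the 4 undifferentiated libraries alone, whose replicates were closer than those of later stages, gave -2.15 ± 0.27 with an edgeR adjusted p of 0.000563, and DESeq2 on all libraries gave an adjusted p of 0.0227. That fit of 4 libraries called 3 members beside 27.8% of all genes: Gli2, lower in W330R, and Gli3 and Sufu, higher by 0.38 ± 0.06 and 0.24 ± 0.06 (edgeR adjusted p = 0.00152 and 0.0176). On days 2, 4 and 6 Gli2 differed by 1.12 ± 0.55, 0.85 ± 0.54 and 0.80 ± 0.54, with edgeR adjusted p-values of 0.298, 0.375 and 0.418. Over the 4 stages the difference was 0.15 ± 0.29 (edgeR adjusted p = 0.772). The average of days 2 to 6 alone, where 29.0% of all genes were called, was 0.92 with an edgeR adjusted p of 0.0392.

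From undifferentiated cells to day 2, Gli2 rose in W330R by 4.18 ± 0.68 on the log2 scale (edgeR adjusted p = 0.000204), from libraries at 1.06 and 1.39 CPM to libraries at 20.9 and 23.1 CPM. In WT the step was 0.90 ± 0.57 (edgeR adjusted p = 0.203). The difference between these steps was 3.28 ± 0.88 (edgeR adjusted p = 0.0767), which missed the threshold in the fit of all libraries. It passed with DESeq2 (adjusted p = 0.00485), without the filter on low counts (edgeR adjusted p = 0.0140) and with a fit of the 4 conditions alone (edgeR adjusted p = 0.0375). From day 2 to day 6 no genotype passed the test for Gli2.

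Gli3 (ENSMUSG00000021318, chromosome 13, 15463235 to 15730026 in GRCm38) encodes the factor that acts mainly as a repressor when the pathway is off. It shares 188 of its 9589 exon bases with Gm6556 on the opposite strand. Undifferentiated libraries held 69.2 and 68.8 CPM in WT and 85.8 and 94.0 CPM in W330R. On days 2, 4 and 6, WT held 22.1 and 11.1, 27.1 and 15.2, and 41.7 and 23.8 CPM. W330R held 33.4 and 23.4, 45.7 and 34.2, and 60.3 and 51.7 CPM. Both W330R libraries were above both WT libraries at every stage, and the double mutant, with 20.8 and 9.65, 30.5 and 25.9, and 43.7 and 31.6 CPM, overlapped WT on each day.

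Gli3 was higher in W330R than in WT by 0.72 ± 0.20 on the log2 scale over the 4 stages (edgeR adjusted p = 0.0180), and the call ended without WT day 4 replicate 2 (0.0562). The double mutant differed from W330R by -0.66 ± 0.23 (edgeR adjusted p = 0.0606) and from WT by 0.17 ± 0.23 (edgeR adjusted p = 0.687). The former difference passed with DESeq2 (adjusted p = 0.0269), without the filter on low counts (edgeR adjusted p = 0.0254) and without double mutant day 2 replicate 1 (edgeR adjusted p = 0.0186). From undifferentiated cells to day 2, Gli3 fell by 2.07 ± 0.41 in WT (edgeR adjusted p = 0.00078) and by 1.66 ± 0.40 in W330R (edgeR adjusted p = 0.00344).

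From day 2 to day 6, Gli3 rose in the double mutant by 1.33 ± 0.40 (edgeR adjusted p = 0.0298). That call ended without double mutant day 2 replicate 2 (0.255) or day 6 replicate 1 (0.172), and with a fit of the 2 conditions alone (0.179). The steps of 0.99 ± 0.40 in WT and 0.98 ± 0.39 in W330R missed the threshold (edgeR adjusted p = 0.0815 and 0.0813). DESeq2 called both, with adjusted p-values of 0.0433 and 0.0428, and in WT leaving out day 2 replicate 1 or day 6 replicate 2 also gave a call (edgeR adjusted p = 0.0318 and 0.0471). In W330R a fit of the conditions compared alone gave a call as well (0.98 ± 0.20, edgeR adjusted p = 0.0233).

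Gli1 (ENSMUSG00000025407, chromosome 10, 127329882 to 127341974 in GRCm38) encodes the GLI activator whose own transcription is the most used readout of the pathway. It shares 265 of its 4995 exon bases with Gm47200 and 62 with Arhgap9, both on the opposite strand, and the sources used here do not say whether the counting used strand. Undifferentiated WT libraries held 2.38 and 2.80 CPM, and undifferentiated W330R libraries 1.47 and 0.925 CPM. On day 2 both WT libraries had 0 counts, and each of the 4 libraries of the mutants had 1 count. All day 2 libraries were therefore under the floor of 3 counts. On day 4 the libraries held 0.794 and 0.646 CPM in WT, 0.763 and 0.370 in W330R, and 0.425 and 0.435 in the double mutant. On day 6 they held 1.64 and 1.21 CPM in WT, 1.73 and 0.903 in W330R, and 0.581 and 0.108 in the double mutant, the last of these from 1 count.

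Gli1 fell from undifferentiated cells to day 2 in WT (edgeR adjusted p = 1.79e-05) and in W330R (edgeR adjusted p = 0.000293). The mean of the undifferentiated WT libraries was at least 13.9-fold higher than day 2, with day 2 set at the mean of the levels that 3 counts per library would give. In W330R, 26 counts in undifferentiated cells against 2 on day 2 gave a ratio of 28.0 (95% counting interval 7.01 to 243). From day 2 to day 6 Gli1 rose in WT (edgeR adjusted p = 0.000258), to a mean at least 7.64-fold higher than the same floor, and in W330R (edgeR adjusted p = 0.000742), by a ratio of 32.9 (8.905 to 275). In the double mutant the ratio was 8.05 (2.02 to 70.0) with an edgeR adjusted p of 0.0323. The call in the double mutant ended without its day 2 replicate 1 (0.0605), day 2 replicate 2 (0.228) or day 6 replicate 1 (0.808), with DESeq2 (0.0827), without the filter (0.0506) and with its own 2 conditions alone (0.302).

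Between genotypes Gli1 did not pass the test in any comparison. On day 6 the double mutant differed from W330R by -1.68 ± 0.56 on the log2 scale and from WT by -1.79 ± 0.56 (edgeR adjusted p = 0.165 and 0.159). In undifferentiated cells W330R differed from WT by -1.10 ± 0.54 (edgeR adjusted p = 0.449), without overlap of the libraries.

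**Figure D3:**
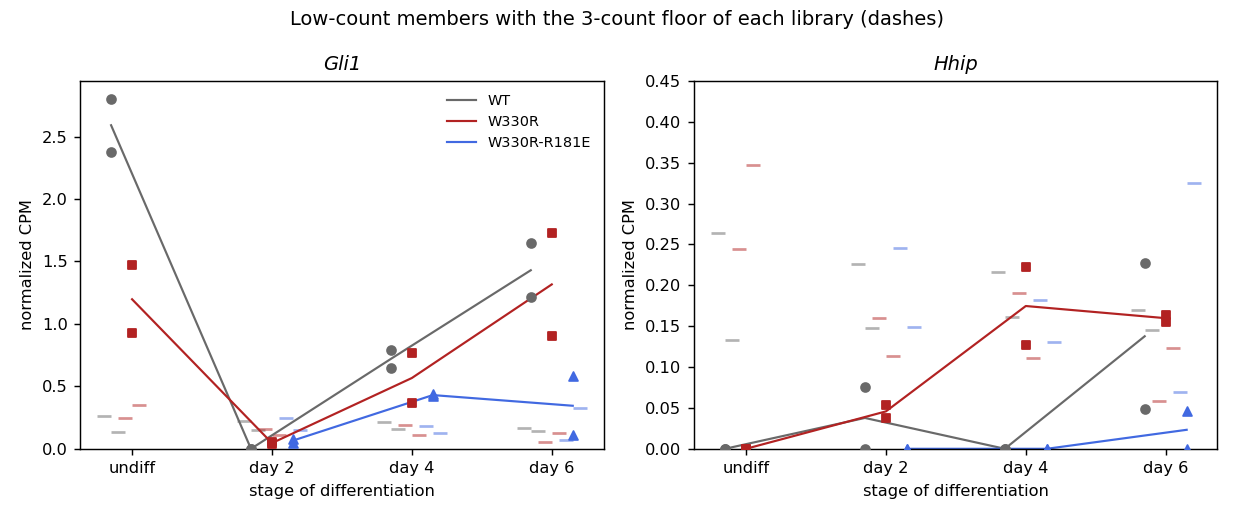
Normalized CPM (vertical axes, from 0) of Gli1 and Hhip by stage, with 1 point per library, lines through condition means and dashes at the CPM that 3 counts would give in each library. Gli1 is under the dashes in all 6 day 2 libraries, while only 4 Hhip values lie above their own dash.

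Gli1 and Ptch1, both used as readouts of the pathway, were set side by side by library. The libraries with the highest Gli1, undifferentiated WT, held the 22.2 and 23.9 CPM of Ptch1 that are among its lowest values. The 3 double mutant libraries with the highest Ptch1, at 79.9, 123 and 147 CPM, held 0.435, 0.581 and 0.425 CPM of Gli1. Over the 11 condition means of log2 CPM, Pearson's r between Gli1 and Ptch1 was -0.11, and over the 9 conditions of days 2 to 6 it was 0.30. Both correlations include the day 2 means of Gli1, which rest on 0 or 1 counts per library, under the floor of 3 counts. On the log2 scale these means are set largely by the prior count of 2 that is added before taking logs. The 2 correlations describe conditions that share the medium, the stage and the libraries.

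**Figure D4:**
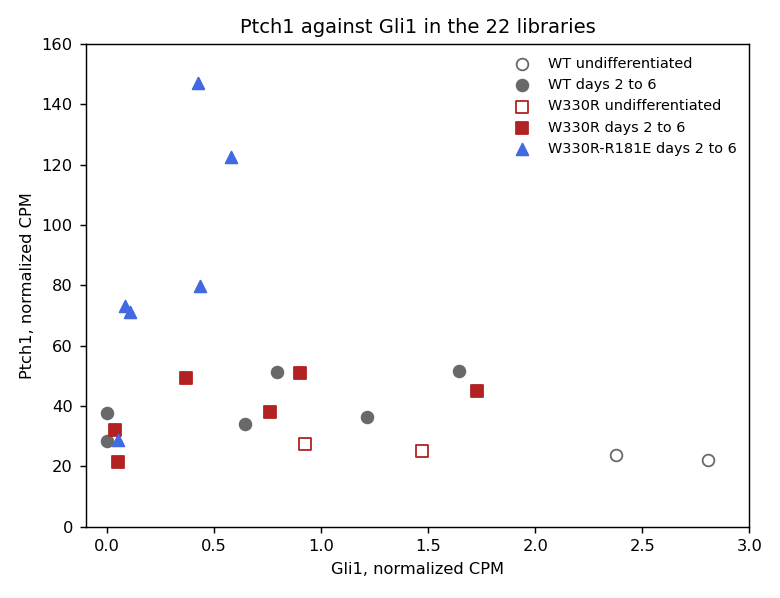
Ptch1 (vertical axis) against Gli1 (horizontal axis) in normalized CPM, with 1 point per library, open symbols for undifferentiated cells, and colours and shapes for the genotypes. The double mutant libraries of days 4 and 6 hold 71.0 to 147 CPM of Ptch1 with 0.108 to 0.581 CPM of Gli1.

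Over time the genes tested divided as follows. From undifferentiated cells to day 2, 3 of 6 were called in WT (Sufu higher, Gli3 and Gli1 lower), beside 50.9% of all genes, 26.5% higher and 24.4% lower. In W330R 5 of 6 were called (Smo, Sufu and Gli2 higher, Gli3 and Gli1 lower), beside 48.2% of all genes, 25.1% higher and 23.0% lower. From day 2 to day 6, 1 of 6 rose in WT (Gli1), beside 26.6% of all genes (14.8% higher, 11.8% lower), and 1 of 6 rose in W330R (Gli1), beside 25.0% (13.6% higher, 11.3% lower). In the double mutant 2 of 6 rose (Gli3 and Gli1), beside 23.2% of all genes (12.9% higher, 10.3% lower).

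Of 24 tests of a difference in change between genotypes edgeR called none, with 2 unadjusted p-values under 0.05 (Gli2 and Gli1) and 1 call by DESeq2. For the step to day 2, 2075 of all genes had an unadjusted p under 0.05. For the step from day 2 to day 6 this number was 975 between W330R and WT and 794 between the double mutant and WT. The share of all genes called was 1.87% for the step to day 2 between W330R and WT. For the step from day 2 to day 6 it was 0.0895% between W330R and WT, 0.0413% between the double mutant and WT, and 0% between the double mutant and W330R, where 596 genes had an unadjusted p under 0.05 and DESeq2 called 39.

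Levels of different genes were compared per kilobase of exon, as RPKM (CPM divided by the length of the merged GENCODE exons). The condition means of Smo ran from 26.6 to 47.8 RPKM and those of Sufu from 5.76 to 13.4 RPKM. Gli3 ran from 1.59 to 9.38, Ptch1 from 1.62 to 8.003 and Gli2 from 0.178 to 3.86 RPKM. Gli1 stayed at or under 0.519 RPKM and Hhip at or under 0.0192 RPKM. The ratio of Gli2 to Gli3 per length was 0.112 and 0.108 in undifferentiated WT libraries, 0.0173 and 0.0206 in undifferentiated W330R libraries and 0.547 to 1.37 in the 18 later libraries, so that no later library overlapped an undifferentiated one. The ratio of Ptch1 to Smo per length was 0.0464 to 0.118 in the WT and W330R libraries of days 2 to 6, and 0.175, 0.0654, 0.328, 0.159, 0.208 and 0.1498 in those of the double mutant.

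In the order of the 11 condition means, Gli2 was highest in W330R on day 6 and lowest in undifferentiated W330R, and 8 of its 10 pairs of neighbours overlapped. Gli3 was highest in undifferentiated W330R and lowest in the double mutant on day 2, with 7 of 10 neighbours overlapping. Ptch1 was highest in the double mutant on day 4 and lowest in undifferentiated WT, with 9 of 10 overlapping. For Gli1, Smo and Sufu 6, 7 and 7 of 10 overlapped.

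The genes with the most similar pattern were taken by Pearson's r of mean log2 CPM over the 11 conditions, given as a description. They were Flii (0.967) and Pea15a (0.958) for Gli1, Dcp1b (0.989) and Lrfn3 (0.978) for Gli2, and Ddr2 (0.993) and Nfix (0.991) for Gli3. For Ptch1 they were Fam212a (0.981) and Fam160a1 (0.977), for Smo Wiz (0.987) and Patz1 (0.984), and for Sufu Kdm4a (0.985) and Urod (0.979). Over the 9 conditions of days 2 to 6 these genes had an r of 0.856 to 0.988. Other genes were then closest, such as Cacna1g and Coro2b for Gli1 and Cdk18 and F2r for Gli2, and only Fam212a stayed among the 2 closest. The day 2 means of Gli1 in these comparisons rest on 0 or 1 counts per library. Among the members themselves, Gli3 and Smo had an r of 0.942 over the 9 conditions of days 2 to 6 and 0.07 over all 11.

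The other genes of the pathway came from a list of 53, of which 45 passed the filter. The ligand genes were low: Shh had at most 2 counts in any library and Dhh at most 5. Ihh had at most 18 counts, was over 3 counts in 14 of 22 libraries and reached 0.350 CPM. The co-receptor genes were well measured, with medians over the 22 libraries of 1312 CPM for Gas1, 249 CPM for Boc and 97.4 CPM for Cdon.

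For W330R against WT, 13 of the 45 pathway genes were higher and 1 lower, beside 11.2% and 11.8% of all genes, and the median log2 fold change was 0.20 against 0.01 for all genes. Osr2, a transcription factor gene of developing mesenchyme, rose by 1.32 ± 0.17 (edgeR adjusted p = 0.000203), with means of 14.9 CPM ± 8.73 (SD, n = 8) in W330R and 5.68 ± 3.47 (n = 8) in WT. Gas1 rose by 0.76 ± 0.15 (edgeR adjusted p = 0.00351), Foxf1 by 0.65 ± 0.21 (0.0349) and Foxc2, like Foxf1 a forkhead factor gene of mesenchyme, by 0.62 ± 0.17 (0.0182). Of the 12 tested genes known to be induced by the pathway, 3 were called over the 4 stages, all higher. Among these 12 genes the sign could differ between stages. In undifferentiated cells Bmp4 was lower in W330R (-2.36 ± 0.37, edgeR adjusted p = 0.00489), beside 1.75% of all genes called. On days 2, 4 and 6 it was at 0.47, 1.15 and 1.05, without a call. Foxf1 was at -0.74 in undifferentiated cells and at 1.15, 1.23 and 0.96 later, without a call at any single stage. Osr2 was higher at each stage.

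For the double mutant against W330R, 13 pathway genes were lower and none higher, beside 9.36% and 7.87% of all genes, with a median log2 fold change of -0.23 against 0.01. Osr2 was lower, with a log2 fold change of -1.76 ± 0.19 (edgeR adjusted p = 4.57e-05), as were Bmp4, a secreted BMP ligand (-1.33 ± 0.21, edgeR adjusted p = 0.000916), Glis2 (-1.20 ± 0.16, edgeR adjusted p = 0.000201) and Foxf1 (-0.95 ± 0.23, edgeR adjusted p = 0.0126). Of the 12 induced genes tested, 6 were lower and none higher, whereas Ptch1 was higher in the same comparison. Bmp4 had means of 14.98 CPM ± 9.47 (SD, n = 6) in the double mutant and 39.3 ± 23.5 (n = 6) in W330R.

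For the double mutant against WT, 3 of 45 were lower and none higher, beside 5.12% and 4.46% of all genes: Scube2, which helps release ligand (-0.64 ± 0.12, edgeR adjusted p = 0.00712), the adenylyl cyclase gene Adcy6 (-0.54 ± 0.11, edgeR adjusted p = 0.0117) and Prkaca, a catalytic subunit of protein kinase A (-0.45 ± 0.09, edgeR adjusted p = 0.0118). Prkaca was also lower in W330R than in WT over the 4 stages (-0.34 ± 0.08, edgeR adjusted p = 0.00915). Protein kinase A restrains the pathway by marking GLI2 and GLI3 for processing. None of the 12 induced genes was called between the double mutant and WT.

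From undifferentiated cells to day 2, 7 pathway genes rose and 13 fell in WT, beside 26.5% and 24.4% of all genes, and 7 rose and 11 fell in W330R, beside 25.1% and 23.0%. With both directions together, the share of the 45 genes called was below that of all genes, 50.9% in WT and 48.2% in W330R. This came from the genes that rose, while the share that fell was slightly above that of all genes in both genotypes. These differences in share were not tested. Bmp4 fell by 5.23 ± 0.42 in WT (edgeR adjusted p = 4.35e-07), from 317 CPM ± 9.78 (SD, n = 2) to 8.34 ± 4.21. In W330R it fell by 2.40 ± 0.38 (edgeR adjusted p = 0.000154), from 61.8 ± 1.67 to 11.8 ± 2.04 CPM. Ccnd1, a cyclin gene of the G1 phase, fell by 3.98 ± 0.52 in WT and by 2.53 ± 0.49 in W330R (edgeR adjusted p = 2.56e-05 and 0.000733). Sfrp1, which encodes a secreted Wnt antagonist, rose by 2.67 ± 0.47 and 4.08 ± 0.51 (edgeR adjusted p = 0.000293 and 2.05e-05). Bcl2, an inhibitor of apoptosis, fell by 2.72 ± 0.40 in WT (edgeR adjusted p = 6.36e-05), and Osr2 rose by 2.61 ± 0.35 in W330R (edgeR adjusted p = 3.9e-05).

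From day 2 to day 6, 16 of the 45 genes were higher, 1 lower and 28 not called in WT, beside 14.8% of all genes higher and 11.8% lower. In W330R and in the double mutant 11 were higher, 1 lower and 33 not called, beside 13.6% and 11.3%, and 12.9% and 10.3%, of all genes. The growth factor gene Igf2 was called higher in WT (edgeR adjusted p = 0.00125), to a day 6 mean of 2.50 CPM, and the transcription factor gene Nkx3-2 in W330R (edgeR adjusted p = 0.0308), to 0.455 CPM. No fold change is given for these because no day 2 library of that genotype was over 3 counts. Igf2 also rose by 2.50 ± 0.68 in W330R and by 2.22 ± 0.72 in the double mutant (edgeR adjusted p = 0.0157 and 0.0389), to 1.34 and 1.10 CPM. Bmp4 rose by 1.83 ± 0.38 in WT, 2.41 ± 0.38 in W330R and 2.19 ± 0.39 in the double mutant (edgeR adjusted p = 0.00304, 0.000624 and 0.00181). Gas1 rose by 1.25 ± 0.31 in WT (edgeR adjusted p = 0.00873). Ccnd1 rose by 1.72 ± 0.48 in WT and 1.84 ± 0.48 in the double mutant (edgeR adjusted p = 0.016 and 0.0139). Scube3, a relative of Scube2, rose by 2.18 ± 0.64 in W330R and 2.00 ± 0.64 in the double mutant (edgeR adjusted p = 0.0228 and 0.0363).

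**Figure D5:**
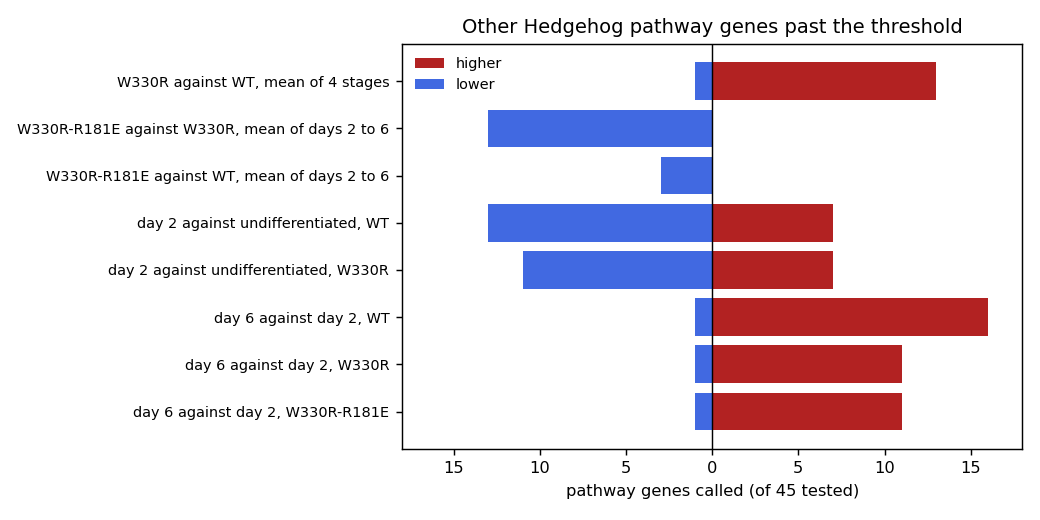
Number of the 45 tested pathway genes called higher (red, right) or lower (blue, left) in 8 comparisons (rows), at an edgeR adjusted p under 0.05. The counts are 13 and 1 for W330R against WT, and 0 and 13 for the double mutant against W330R.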

How the data were processed

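Total RNA of C3H 10T1/2 cells was sequenced by the authors, who deposited whole-number read counts per gene symbol with no normalization. The submitters' processing notes name kallisto, DESeq2 1.40 and GRCm39, with no role stated for each, and strand handling is not given in the sources used here. The article that cites the series does not describe these libraries. All 22 columns were matched to samples by genotype, day and replicate number, and 0 columns were left unused. The labels do not say that replicates are separate cultures, so p-values measure only the spread between these libraries.

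From these counts, genes were filtered with filterByExpr (minimum count 10, minimum total 15), scaled by TMM and fitted with the quasi-likelihood model of edgeR 4.0.16 in R 4.3.3, with 1 mean per condition over all 22 libraries and 22 contrasts. Adjusted p-values are Benjamini-Hochberg values over all 14520 genes, called under 0.05, and the SE is the log2 fold change divided by the root of F. A level of 3 counts or fewer was taken as not measurable, and floors and intervals cover counting error only. Fitted fold changes of Gli1 that involve day 2 are not given. Exon lengths, positions (GENCODE, GRCm38) and promoter sequences (RefSeq, GRCm38.p6) come from another build than the counts. The Grk2 gene was found as Adrbk1.

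Each of the 7 members is described in every condition. Of the 53 other pathway genes, at most 4 called genes per contrast with the largest change are named. No fold change is given where no library of a condition is over 3 counts. Prkaca in W330R, and Bmp4, Foxf1 and Osr2 at single stages, are given besides. For each member the 2 genes most like it in pattern are named, among genes whose mean log2 CPM was 1 or more. Members and lists were chosen with earlier results of these data known. Alternatives were DESeq2 1.42.0, RLE scaling, no filter, a fit of the conditions compared alone, the replicate number as a block, the mean of days 2 to 6 in place of 4 stages, the 9 later conditions for likeness and leaving out each library.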

Additional observations from a re-analysis of the deposited data

Results flagged for a closer look

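Gli2 was set apart because the sign of its difference between W330R and WT was not the same at all stages, with every library of a stage on the same side. Only the members were searched for this pattern. The share of all genes that have it was not determined, so it cannot be called particular to Gli2. The W330R mean minus the WT mean was -4.20 CPM in undifferentiated cells. It was 11.8 CPM on day 2, 11.7 CPM on day 4 and 11.2 CPM on day 6. The change of sign across all 4 stages was not tested as such. The step from undifferentiated cells to day 2 was tested between the genotypes, with a difference of 3.28 ± 0.88 on the log2 scale and an edgeR adjusted p of 0.0767, and adjusted p-values of 0.00485 to 0.0375 with DESeq2, without the filter on low counts or with those 4 conditions alone. The undifferentiated libraries are also those with the other naming scheme.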

How the results depend on the processing

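Leaving out 1 library at a time leaves a condition with 1 library, whose spread is then taken from the other conditions. The number of members called went from 2 to 3 for W330R against WT over the 4 stages, from 1 to 2 between the double mutant and W330R and from 0 to 2 between the double mutant and WT over days 2 to 6. At single stages it was 0 for W330R against WT, 0 to 1 between the mutants and 0 between the double mutant and WT. For the step from undifferentiated cells to day 2 it was 2 to 3 in WT and 4 to 5 in W330R, and from day 2 to day 6 it was 1 to 2 in WT, 1 to 2 in W330R and 0 to 2 in the double mutant. For the differences in change it was 0.

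With only the conditions compared in the fit, 1 member was called between the mutants over days 2 to 6, 0 between the double mutant and WT, 3 for W330R against WT at single stages, 3 and 0 from day 2 to day 6 in W330R and the double mutant, and 1 among the differences in change. With DESeq2 the single stages gave 2, 1 and 1 calls for W330R against WT and the double mutant against W330R and WT, the steps from day 2 to day 6 gave 2, 3 and 1 in WT, W330R and the double mutant, and the differences in change gave 1. Without the filter on low counts there was 1 call at single stages for the double mutant against W330R, 2, 2 and 1 for the steps from day 2 to day 6 in the same order, and 1 among the differences in change. RLE scaling kept the number of calls in all 12 of these comparisons. The share of all genes called also moved with the setting. For W330R against WT in undifferentiated cells it was 1.75% in the main fit and 27.8% in the fit of those 4 libraries alone. For the double mutant against WT on days 2 and 4, DESeq2 called 110 and 160 genes where edgeR called 0. Shares for most other settings, among them the block and the fits without 1 library, are not given here. The cause of these differences was not tested.

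None of the values that changed sign was called. For W330R against WT the log2 difference of Ptch1 was -0.046 over days 2 to 6 and -0.065 to 0.096 without each library, and that of Gli2 was -0.0028 to 0.38. Between the mutants, Sufu was at 0.0013 with DESeq2, 0.0011 with RLE scaling and -0.096 to 0.099 without each library. Between the double mutant and WT, Gli3 was at -0.047 to 0.36, Ptch1 on day 2 at -0.20 to 1.15, and the adjusted p of Gli1 was 0.993 with DESeq2 and 0.536 to 0.850 without each library.

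The replicate numbers were not taken as pairs, since the labels name no shared culture or day. Deviations from the condition means correlated at over 0.1 in 27 of 55 pairs of conditions (range -0.07 to 0.53, median 0.09). These correlations cannot decide whether libraries of the same number share a culture or day. With the replicate number as a block, edgeR called 2 members at single stages for W330R against WT (Gli2 and Gli3), 2 from day 2 to day 6 in WT and 2 in W330R (Gli3 and Gli1 in each), and 1 among the differences in change (Gli2). It also called Gli3 between the mutants over days 2 to 6 (adjusted p = 0.00518). Depth limits Hhip at every stage and Gli1 on day 2.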
